A study of Mus musculus with 6 samples.

Results

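The 6 genes described here, Gcg, Gc, Irx1, Irx2, Slc7a2 and Dpp4, were taken as marks of glucagon-secreting alpha cells. They were followed in RNA of mouse pancreatic islets, and which cells gave the reads of each gene was not measured. The genes were chosen by name, and each was linked to 1 of the 39470 loci in the deposited count table. The locus of Gc was given, and the others were found by the lengths of their exons and introns on the same chromosome and strand. Where several loci had matched, the one with most reads was to be used, but each gene matched 1 locus, so no read count decided the choice. None of the 6 loci shared exonic bases with another locus (0% each), and all 6 passed the filter on low counts. The list was drawn up with the diet differences of these libraries already known, so the number of members that moved is a description and not independent evidence.

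Islets came from mice of the inbred C57BL/6 strain, 14 weeks old when killed. One group had been fed a high fat diet for 8 weeks (3 libraries) and the other a normal diet (3 libraries). The count columns abbreviate the diets. HDR, which is not spelled out in the sources used here, was taken to be the high fat diet, and ND to be the normal one, and every direction below depends on that reading. Whether each library came from separate animals is not stated, so p-values speak of the spread over these libraries, part of which may be technical. High fat libraries held 106332715 to 135353777 reads and normal diet libraries 104657337 to 133633996. On the second principal component, high fat library 3 had a score of -59.4, and high fat libraries 1 and 2 had 32.3 and 25.5.

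Alpha cells lie among the insulin-secreting beta cells of the islet and release glucagon when blood glucose is low or amino acids are high. Glucagon is cut from proglucagon, the product of Gcg, which also holds the sequence of GLP-1. Irx1 and Irx2 encode Iroquois homeodomain transcription factors expressed in the alpha-cell lineage. Gc encodes the vitamin D-binding protein, a plasma protein made mainly in liver and also in alpha cells. Slc7a2 encodes a transporter of arginine and other cationic amino acids. Dpp4 encodes dipeptidyl peptidase 4, a surface protease that inactivates GLP-1 and has been described in human alpha cells.

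RefSeq promoter sequences were found for 4 of the 6 members (Gcg, Gc, Irx2 and Dpp4). The 250 bases before the start are shown for 3 of them, Gcg and Irx2, which were lower on the high fat diet, and Gc, which was higher. The sequences are from build GRCm38.p6, which differs from the build of the counts. They lie at chr2:62483654-62483903 (minus strand), chr13:72628570-72628819 (plus strand) and chr5:89457899-89458148 (minus strand). Each is written 5′ to 3′ on the gene's strand, with the TATA-box letters TATAAA and the E-box letters CAGATG, on either strand, in capitals.
Gcg: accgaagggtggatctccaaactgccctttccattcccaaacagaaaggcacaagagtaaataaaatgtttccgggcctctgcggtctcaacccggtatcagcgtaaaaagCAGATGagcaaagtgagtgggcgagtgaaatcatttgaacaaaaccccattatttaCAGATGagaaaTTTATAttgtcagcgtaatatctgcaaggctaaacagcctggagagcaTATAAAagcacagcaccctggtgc
Irx2: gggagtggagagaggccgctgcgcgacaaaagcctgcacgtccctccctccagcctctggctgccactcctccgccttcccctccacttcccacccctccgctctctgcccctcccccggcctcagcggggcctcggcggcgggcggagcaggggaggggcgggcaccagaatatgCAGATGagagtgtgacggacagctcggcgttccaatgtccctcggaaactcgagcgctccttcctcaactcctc
Gc: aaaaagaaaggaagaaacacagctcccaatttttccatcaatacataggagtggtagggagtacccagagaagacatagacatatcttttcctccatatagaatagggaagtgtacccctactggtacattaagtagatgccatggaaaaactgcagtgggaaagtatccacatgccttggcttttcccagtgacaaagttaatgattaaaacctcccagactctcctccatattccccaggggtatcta

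The Gcg promoter held TATAAA beginning 24 bases before the start, the usual place of a TATA box, and again on the other strand 72 bases before it. It held CAGATG at 139 and 83 bases before the start, and the Irx2 promoter held it at 74 bases. At all 3 places the letters ran on as CAGATGAG, an 8-letter run that contains CAGATG and was picked out after the sequences had been read. Of 32851 promoter entries of the same length, 12.4% held TATAAA, 14.4% CAGATG and 1.1% CAGATGAG. The Gc window held neither TATAAA nor CAGATG. The Irx2 window was the richest of the 3 in G and C, at 68.4%, against 44.8% for Gcg and 42.0% for Gc. These matches describe letters only.

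Levels are given as CPM (counts divided by library size in units of 1e6, after TMM scaling). To order the genes, CPM was divided by the exonic length of the locus in kb. On both diets the order was Gcg, Gc, Slc7a2, Dpp4, Irx2 and Irx1, and no 2 neighbours in it overlapped between libraries of a diet. Gcg stood at 17349 ± 1719 CPM per kb on the high fat diet and 21171 ± 1083 on the normal diet (SD, n = 3 each). Gc stood at 340 ± 105 CPM per kb on the high fat diet and 104 ± 7.5 on the normal diet. The levels of Slc7a2 and Dpp4 were 48.2 ± 3.5 and 35.8 ± 4.8 CPM per kb on the high fat diet. On the normal diet they were 66.5 ± 3.2 and 29.6 ± 0.077. Irx2 and Irx1, which encode transcription factors, were the lowest, at 6.08 ± 0.31 and 0.583 ± 0.11 CPM per kb on the high fat diet and 8.76 ± 0.64 and 1.16 ± 0.17 on the normal diet. The levels depended on the length used, and for Irx1 the assembled locus is 13.7 kb and the longest reference coding transcript 2.37 kb. With reference transcript lengths, an alternative added after the data had been seen, Irx1 stood at 3.37 CPM per kb on the high fat diet and 6.72 on the normal diet, still lowest. The order changed at 1 place, where Slc7a2 stood above Gc on the normal diet, at 102 against 95.9 CPM per kb.

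**Figure D1:**
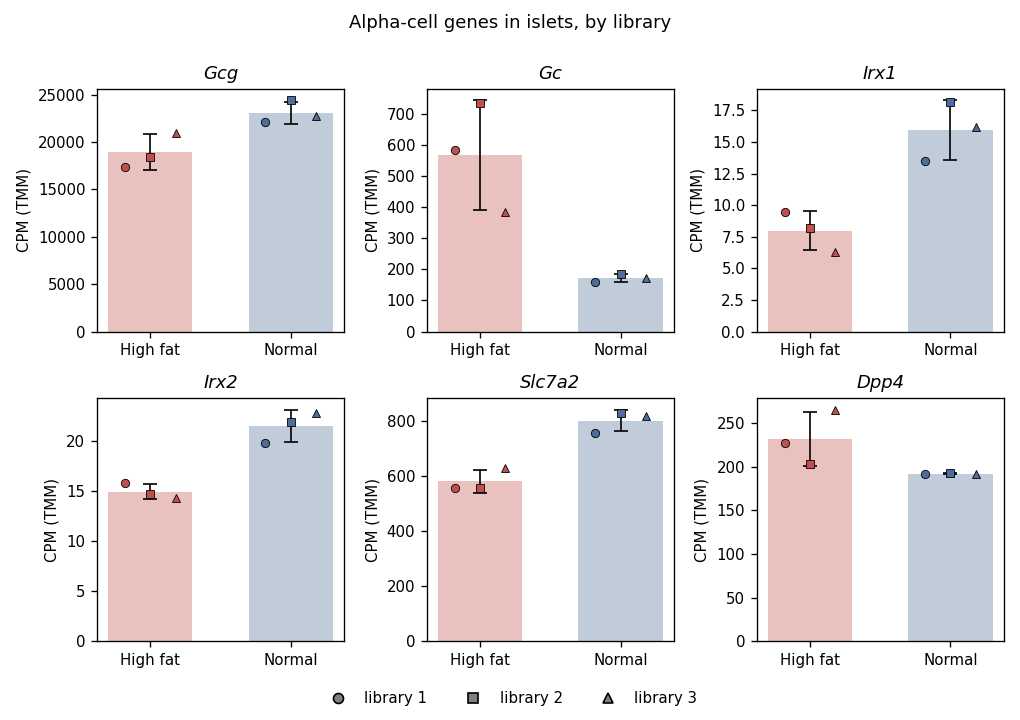
CPM (TMM-scaled) of each alpha-cell gene in the 3 high fat and 3 normal diet libraries; bars are means, error bars SD, and symbols are libraries. In every panel the libraries of the diets separate, and Gc and Dpp4 are higher on the high fat diet while Gcg, Irx1, Irx2 and Slc7a2 are lower.

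Gcg, the hormone gene, had 17327, 18466 and 20991 CPM in high fat libraries 1, 2 and 3, against 22096, 24400 and 22796 CPM in normal diet libraries 1, 2 and 3. Each high fat library lay below each normal diet library, with high fat library 3 nearest to them. The reads of Gcg made up 1.61%, 1.68% and 2.01% of high fat libraries and 2.44%, 2.56% and 2.43% of normal diet libraries. The log2 fold change, high fat over normal, was -0.29 (SE 0.095), and the adjusted p was 0.080 by edgeR's quasi-likelihood test over all 23983 loci tested, above the threshold of 0.05. Without high fat library 3 the value was -0.36 and Gcg passed (adjusted p = 0.012). With all 6 libraries it also passed with library totals alone in place of TMM (-0.49, adjusted p = 0.021) and with no filter on low counts (-0.30, adjusted p = 0.050). CPM is a share of the reads in these bulk samples. Fewer alpha cells, less Gcg RNA per alpha cell and more RNA from other cells cannot be told apart. In mm9 Gcg spans 62312587 to 62321710 of chromosome 2 (minus strand), in 6 exon blocks and 1 assembled transcript.

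Both Iroquois genes fell. Irx1 had 9.45, 8.18 and 6.33 CPM in high fat libraries, against 13.5, 18.2 and 16.2 CPM in normal diet libraries. All high fat values lay below the lowest normal diet value. Irx1 fell by 0.998 on the log2 scale (SE 0.17, edgeR adjusted p = 0.022), which puts high fat islets at 0.501 of the normal diet level, from 790 to 1070 reads in a high fat library and 1687 to 2304 in a normal diet library. Irx2 had 15.8, 14.7 and 14.3 CPM in high fat libraries, against 19.8, 22.0 and 22.9 CPM in normal diet libraries. Its libraries varied little within a diet, with coefficients of variation of 5.14% on the high fat diet and 7.34% on the normal diet. Irx2 fell by 0.53 (SE 0.10, edgeR adjusted p = 0.027). Irx1 (72087288 to 72101171, minus strand) and Irx2 (72766426 to 72771642, plus strand) lie on chromosome 13 of mm9, 665 kb apart.

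Slc7a2, the arginine transporter gene, also fell. It had 558, 558 and 630 CPM in high fat libraries, against 759, 829 and 821 CPM in normal diet libraries. High fat libraries 1 and 2 were alike and library 3 was higher, though still below all normal diet libraries. The log2 fold change was -0.46 (SE 0.083, edgeR adjusted p = 0.023), or 0.725 of the normal diet level. In mm9 the locus spans 41947721 to 42007519 of chromosome 8 (plus strand), with 4 assembled transcripts counted together, so that isoforms were not separated.

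Gc, for the vitamin D-binding protein, rose. It had 583, 734 and 383 CPM in high fat libraries, against 160, 185 and 172 CPM in normal diet libraries. High fat libraries varied far more, with a coefficient of variation of 31.0%, than normal diet libraries, with 7.28%. Even so, the lowest high fat library lay above the highest normal diet library. The log2 fold change was 1.71 (3.28-fold, SE 0.20, edgeR adjusted p = 0.011). High fat library 3, the highest of its diet in Gcg, was the lowest in Gc. Without that library the log2 fold change of Gc was 1.94, and without high fat library 2, the highest in Gc, it was 1.49. Alb, the albumin gene of the same family and a marker of liver, which also makes the protein, stood at 2.32 ± 0.33 CPM on the high fat diet and 1.36 ± 0.47 CPM on the normal diet. In mm9 Gc spans 89846547 to 89886790 of chromosome 5 (minus strand), in 13 exon blocks.

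Dpp4, the protease gene, had 227, 204 and 265 CPM in high fat libraries, against 192.2, 192.5 and 191.5 CPM in normal diet libraries. The normal diet values were nearly identical, with a coefficient of variation of 0.26%, and each high fat library lay above them. The log2 fold change was 0.27 (SE 0.10), and the adjusted p of 0.10 by edgeR did not pass. The value depended on scaling: with library totals alone it was 0.074 (adjusted p = 0.68), while that scaling moved the median of all loci to -0.25, against -0.050 with TMM. A change of scaling shifts all loci nearly alike, so the place of Dpp4 relative to that median is not separate support for a rise. In mm9 Dpp4 spans 62168130 to 62250288 of chromosome 2 (minus strand), 62.3 kb from Gcg.

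Of the 6 members, 1 rose and 3 fell, where 10.8% of all loci tested passed in either direction, 5.95% upward and 4.86% downward. That split depended on scaling: 1426 loci rose and 1165 fell with TMM, 562 rose and 1159 fell with upper quartile scaling, and 300 rose and 3039 fell with library totals alone. The median log2 fold change was -0.38 over the members and -0.050 over all loci tested. For all 6 members the high fat and normal diet libraries did not overlap, which was true of 39.2% of loci tested. The calls were not stable to the loss of a normal diet library: without library 1, 2 or 3 of that diet, edgeR called 0 loci of any kind, with 5500, 6286 and 6294 at an unadjusted p under 0.05. The 4 called members then had adjusted p-values of 0.074 to 0.095. Without high fat library 1 edgeR called 128 loci and without high fat library 2 it called 86, and in both cases Gc passed (adjusted p = 0.040 and 0.037) and Irx1, Irx2 and Slc7a2 did not (0.050 to 0.087). Without high fat library 3 it called 5035 loci, and all members but Dpp4 passed. No member changed sign in any of the 16 alternative settings.

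**Figure D2:**
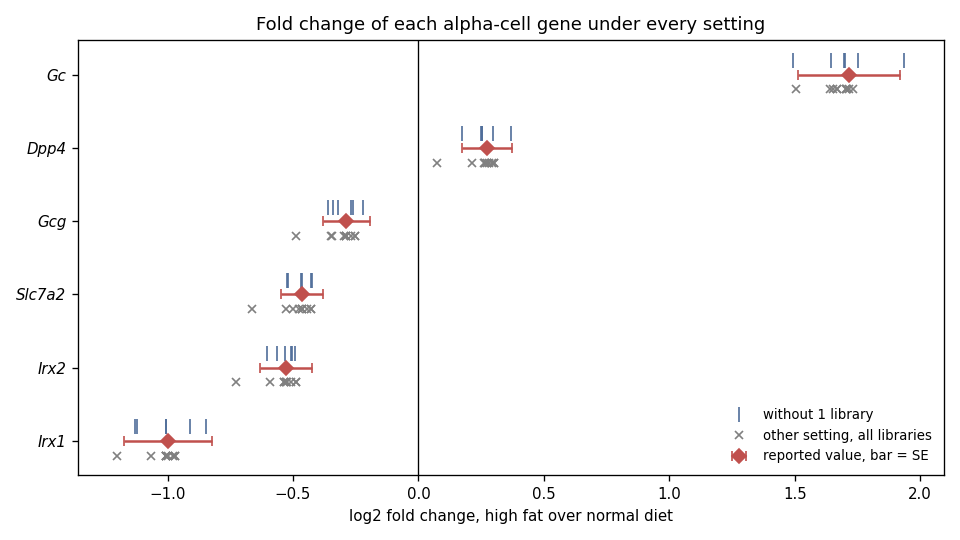
Log2 fold change, high fat over normal diet, of each alpha-cell gene as reported (diamond, bar = SE), without each library in turn (ticks) and under the other settings (crosses). Gc stays between 1.49 and 1.94 and Irx1 between -1.20 and -0.85, and no gene crosses 0.

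To compare the members with the hormone gene itself, reads of each gene were divided by the Gcg reads of the same library, a ratio that does not depend on scaling between libraries. Gc had 33.7, 39.7 and 18.2 reads per 1000 Gcg reads in high fat libraries, against 7.25, 7.60 and 7.56 in normal diet libraries. On the log2 scale the ratio was higher by 1.96 on the high fat diet. Dpp4 had 13.1, 11.0 and 12.6 reads per 1000 Gcg reads in high fat libraries, against 8.70, 7.89 and 8.40 in normal diet libraries. The difference was 0.56. For both genes each high fat library lay above each normal diet library. With TMM Gcg itself stood at -0.29, so a locus that did not move would also be higher in this ratio. Dpp4 itself stood at 0.27 and the median of all loci at -0.050. For how many of all loci the ratio to Gcg separates the diets was not counted. Whether the reads of Gc and Dpp4 came from alpha cells was not tested.

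Irx1 had 0.545, 0.443 and 0.302 reads per 1000 Gcg reads in high fat libraries, against 0.611, 0.745 and 0.709 in normal diet libraries, a difference of -0.72. Slc7a2 had 32.2, 30.2 and 30.0 in high fat libraries, against 34.3, 34.0 and 36.0 in normal diet libraries, a difference of -0.18. For both, each high fat library lay below each normal diet library. Irx2 had 0.913, 0.798 and 0.683 reads per 1000 Gcg reads in high fat libraries, against 0.897, 0.902 and 1.005 in normal diet libraries, and the diets overlapped (difference -0.24, exact permutation p = 0.3, two-sided). The exact permutation p was 0.1 for each of the other 4 ratios, the smallest that 3 libraries against 3 allow, and 0.125 after Benjamini-Hochberg adjustment over the 5 ratios, so this test cannot reach 0.05 here.

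**Figure D3:**
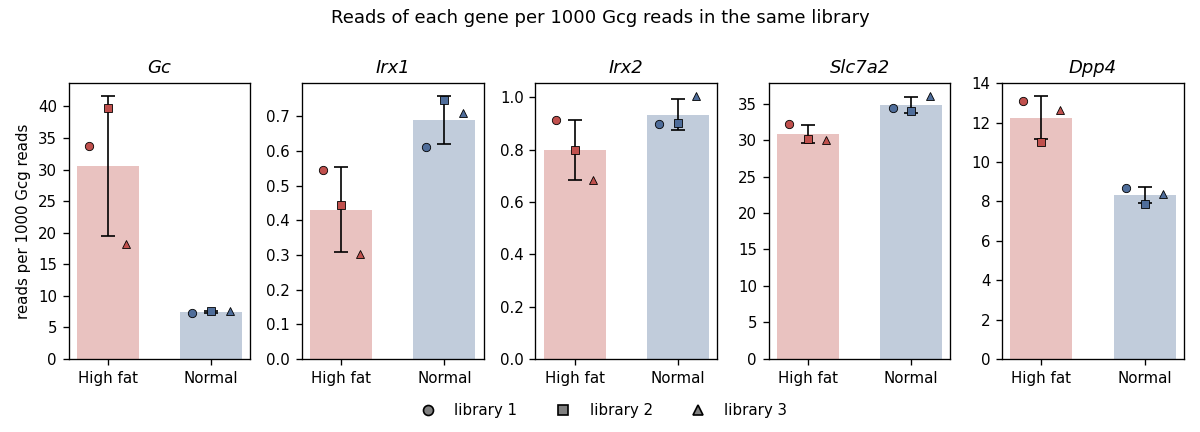
Reads of each gene per 1000 Gcg reads in the same library, for the 3 high fat and 3 normal diet libraries; bars are means, error bars SD, and symbols are libraries. Gc (18.2 to 39.7 on the high fat diet, 7.25 to 7.60 on the normal diet) and Dpp4 (11.0 to 13.1 on the high fat diet, 7.89 to 8.70 on the normal diet) are higher on the high fat diet, Irx1 and Slc7a2 are lower, and Irx2 overlaps.

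Other genes of alpha cells and of the glucagon pathway were taken from lists chosen by function. Of 5 other alpha-cell markers tested, 0 passed by edgeR, and 2 had an unadjusted p under 0.05, as did 31.8% of all loci tested, the share against which such counts in the lists below are to be read. The log2 fold changes of Slc38a5, Etv1 and Sphkap were -0.17, 0.15 and 0.0039, and none of these 3 passed.

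Among 7 tested regulators of the glucagon gene, 1 fell, Isl1, a LIM homeodomain factor of all islet endocrine cells. It had 18.1, 17.5 and 20.3 CPM in high fat libraries, against 31.0, 26.4 and 28.6 CPM in normal diet libraries (log2 fold change -0.62, SE 0.11, edgeR adjusted p = 0.022). Its locus shares 46.0% of exonic bases with another locus. Pax6, Hnf4a and Foxa2 stood at -0.019, -0.0030 and -0.23 and did not pass.

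Of 6 genes for cutting and finishing proglucagon and other prohormones, 4 rose and 0 fell. They were Pam, an amidating enzyme, Cpe, carboxypeptidase E, Scg5, the chaperone of prohormone convertase 2, and Pcsk1, prohormone convertase 1/3. Their log2 fold changes were 0.66, 0.50, 0.49 and 0.36, with edgeR adjusted p-values of 0.013, 0.022, 0.021 and 0.026. Pcsk2, the convertase that releases glucagon in alpha cells, had 5437, 5812 and 4369 CPM in high fat libraries, against 4246, 4656 and 4778 CPM in normal diet libraries. These overlapped, and its 0.19 did not pass (adjusted p = 0.28). Beta cells express these enzymes as well and cannot be told apart from alpha cells here. Pcsk1n, for an inhibitor of prohormone convertase 1/3, had 145, 101 and 4.94 CPM in high fat libraries, against 49.4, 155 and 88.6 CPM in normal diet libraries, with high fat library 3 far below the rest. It did not pass (-0.22, edgeR adjusted p = 0.88). Without high fat library 1 edgeR called 1 of the 6, without high fat library 2 or any 1 normal diet library 0, and with the acinar marker level as a covariate 0. On the authors' scaled values limma also called 0.

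Receptors of proglucagon peptides did not pass (0 of 3 tested by edgeR, 1 at an unadjusted p under 0.05). Gcgr, the glucagon receptor gene, had 36.5, 33.8 and 22.3 CPM in high fat libraries, against 40.5, 39.2 and 41.1 CPM in normal diet libraries. High fat library 3 was the lowest, and the log2 fold change was -0.38 (edgeR adjusted p = 0.15). Glp1r, the GLP-1 receptor gene, stood at 0.052.

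In the families of the members, 0 of 7 tested relatives of Dpp4 passed by edgeR, 1 of them at an unadjusted p under 0.05. Fap, its closest relative, stood at 0.578 ± 0.23 CPM on the high fat diet and 0.712 ± 0.18 CPM on the normal diet. Of the Iroquois family and its relative Mkx, 2 of 5 genes were tested and 0 passed by edgeR, with 0 at an unadjusted p under 0.05. Among 12 transporters of cationic amino acids and genes of arginine use, 0 rose and 3 fell. These were Nos1, neuronal nitric oxide synthase, Ass1, argininosuccinate synthase, and Arg2, mitochondrial arginase, at -1.73, -1.20 and -0.57 (edgeR adjusted p = 0.030, 0.048 and 0.049). Of all loci tested, 4.86% fell. Nos1 had means of 1.01 CPM on the high fat diet and 3.34 CPM on the normal diet. Ass1 had 0.225 and 0.520 CPM, with 268 reads over the 6 libraries. Without high fat library 1 or any 1 normal diet library edgeR called 0 of the 12, and without high fat library 2 it called 1. With replicate number as a block it called 0. Slc7a1, the other widely expressed transporter of this kind, stood at 44.6 ± 3.5 CPM on the high fat diet and 39.4 ± 6.0 CPM on the normal diet, and did not pass (0.18, adjusted p = 0.35). Of 8 tested genes of the albumin family and of vitamin D handling, 0 passed by edgeR, 1 of them, Alb, at an unadjusted p under 0.05. Vdr, the vitamin D receptor gene, stood at 0.046.

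**Figure D4:**
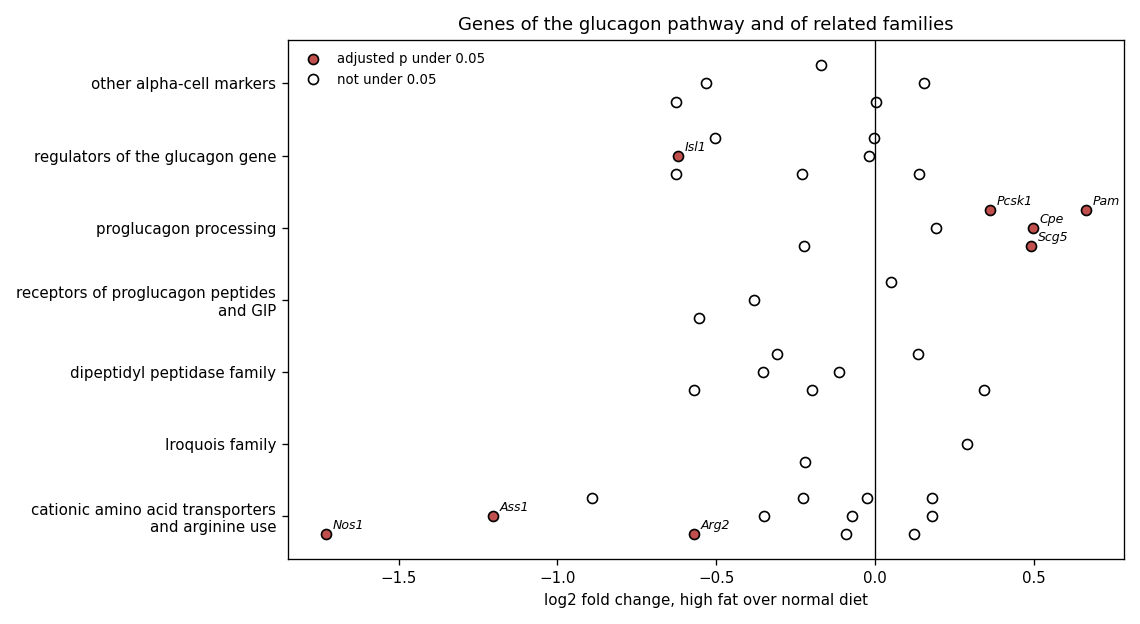
Log2 fold change, high fat over normal diet, of the tested genes of 7 lists around glucagon; each circle is a gene, filled and named where the edgeR adjusted p was under 0.05. The 4 filled processing genes lie at 0.36 to 0.66, Isl1 at -0.62, and Nos1, Ass1 and Arg2 at -1.73 to -0.57.

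Markers of other cells gave the setting. Of 6 tested beta-cell markers, Iapp and G6pc2 rose and 0 fell. The summed level of all 6 was 84423 to 103794 CPM on the high fat diet and 58578 to 68868 CPM on the normal diet. Iapp was the largest part of these sums, with means of 58831.3 CPM on the high fat diet and 35728.5 CPM on the normal diet. The loci of Ins1 and Ins2 share 61.6% and 18.4% of exonic bases with another locus. What that sharing did to their counts, and so to the sums, was not tested. Ins1, Ins2, Slc30a8 and Ucn3 stood at 0.32, 0.16, 0.23 and 0.089 and did not pass (edgeR adjusted p = 0.12, 0.61, 0.15 and 0.53). For each of them the libraries of the diets overlapped. All 6 tested beta-cell markers had log2 fold changes above 0, and 4 had an unadjusted p under 0.05. With Iapp so large a part, the sums alone do not show a rise across the list. Of 6 markers of delta, PP and epsilon cells 0 passed by edgeR (3 at an unadjusted p under 0.05), all with log2 fold changes below 0. Acinar markers (12 tested, 0 passed by edgeR, 4 at an unadjusted p under 0.05, 11 with log2 fold changes above 0) summed to 5419 to 11645 CPM on the high fat diet and 3790 to 7214 CPM on the normal diet. Of 5 Schwann cell markers 3 fell (Sox10, Ngfr and Gfap; 0 passed without high fat library 1), with sums of 8.22 to 14.6 CPM on the high fat diet and 16.7 to 19.5 CPM on the normal diet. Of 7 stromal markers 2 rose, Rgs5 and Acta2 of mural cells, at 0.69 and 0.83, while the other 5 had log2 fold changes below 0 and did not pass. Among these the fibroblast genes Col1a1, Col1a2 and Pdgfra stood at -1.37, -0.65 and -0.93 (edgeR adjusted p = 0.094, 0.14 and 0.19). Of 4 tested immune markers 1 fell, Csf1r. Of 6 endothelial and 4 duct markers tested 0 passed by edgeR, with 0 endothelial and 1 duct marker at an unadjusted p under 0.05. No tested marker of these lists was at 0 in any library. With the acinar level as a covariate the 4 called members kept values of 1.65, -1.01, -0.53 and -0.50 (Gc, Irx1, Irx2 and Slc7a2), while 0 loci of any kind passed by edgeR. The part of the other cell types in the members' differences was not tested.

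Around the members, loci within 200 kb were examined on the deposited coordinates. Dpp4 and Gcg share a neighbourhood with Slc4a10, a sodium bicarbonate transporter gene, whose end lies 3.33 kb from Dpp4. Slc4a10 had 84.1, 88.6 and 83.7 CPM in high fat libraries, against 51.1, 44.6 and 49.5 CPM in normal diet libraries, and rose by 0.82 (SE 0.085, edgeR adjusted p = 0.0092). The other named genes within 200 kb of Gcg were Dpp4, Ifih1, Fap and Gca, at 0.27, 0.020, -0.31 and 0.41, and none of these 4 passed (edgeR adjusted p from 0.086 to 0.94). Slc4a4, beside Gc, stood at -0.11. Pdgfrl and Mtus1, beside Slc7a2, stood at 0.11 and 0.19, and none of these 3 passed.

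The genes most like each member were sought among 12118 other named loci with a mean of at least 1 CPM, by Pearson's r of log2 CPM over the 6 libraries. The highest were Ppp2r2b, Il6st and Csrnp3 for Gcg (r from 0.986 to 0.994), and Thoc5, Clptm1l and Gde1 for Gc (0.999 each). For Irx1 they were Vac14, Lasp1 and Stat5a (0.991 to 0.996), and for Irx2 E130307A14Rik, Fbxw17 and Lingo3 (0.993 to 0.999). For Slc7a2 they were Nptx1, Nnat and Mapkbp1 (0.996 to 0.999), and for Dpp4 Mier3, Twistnb and Naa30 (0.993 to 0.995). With 6 libraries in 2 diets such values are common: 36 named loci exceeded 0.95 for Gcg and 500 for Gc. No member was among the 3 most like another member. Between members r ran from -0.97 (Gc and Slc7a2) to 0.97 (Irx1 and Irx2), values that include the difference between the diets.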

How the data were processed

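The authors deposited raw counts of reads per assembled locus, a scaled signal (each count times 1 constant per library, whole within 0.001 for 100% of values; library medians of these log2 values still ran from -0.20 to 0.22 around the locus means, so depth was not removed) and 98161 transcripts with mm9 coordinates. Per the submitters' processing notes, the tools included edgeR, HTSeq 0.5.4p3, Cufflinks 2.1.1 and TopHat2 2.0.8; their settings, and whether counting used strand, are not given in the sources used here. Per the labels' protocols, total RNA was depleted of ribosomal RNA and libraries were stranded, without poly(A) selection.

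Loci were linked to GENCODE M21 genes (another build) by ordered exon and intron lengths on the same chromosome and strand: 19984 of 39470 were linked. Counts were tested in R 4.3.3 with edgeR 4.0.16 (filterByExpr, TMM, quasi-likelihood, diet alone, Benjamini-Hochberg over 23983 loci, threshold 0.05), as high fat over normal. SEs were derived as the size of the log2 fold change over the square root of F. The test was checked on counts simulated with the same dispersion at every locus. That check does not cover an outlying library or spread that differs between loci. Alternatives used DESeq2 1.42.0 and limma 3.58.1. Members and lists were chosen with earlier results of these data known. Named were all members, list genes past the threshold, list genes a result turns on, named neighbours within 200 kb and the 3 most alike loci. Some list genes are counted but not reported by name here.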

Additional observations from a re-analysis of the deposited data

How the results depend on the processing

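Over the 16 settings tried (6 of which left out 1 library), no member changed sign. Called loci numbered 2591 as reported, 4114 with DESeq2, 1721 with upper quartile scaling (562 higher, 1159 lower, against 1426 and 1165 with TMM), 3339 with library totals (300 higher, 3039 lower), 215 on the authors' scaled values by limma (65 higher, 150 lower), 74 with a replicate block and 0 with the acinar covariate (lowest adjusted p = 0.066, with 5317 loci at an unadjusted p under 0.05), and 0 to 5035 without 1 library. Of the members, 4 were called as reported, 1 on the scaled values, 1 with the replicate block, 0 with the acinar covariate, and 0 to 5 without 1 library. Gcg passed with library totals (-0.49, adjusted p = 0.021) and with no filter (-0.30, adjusted p = 0.050), and ran from -0.36 to -0.22 without 1 library. On the scaled values Irx1 (-0.97), Irx2 (-0.49) and Slc7a2 (-0.43) did not pass. With a mean-variance trend in limma, added after the data had been seen, 1344 loci and 2 members (Gc and Irx1) passed on the scaled values, while Irx2 (-0.49) and Slc7a2 (-0.43) did not. That fit estimated an infinite prior df, which gives a locus's own spread no weight, so its calls are not relied on. With the replicate block Irx1 (-1.01), Irx2 (-0.53) and Slc7a2 (-0.47) did not pass, at adjusted p-values of 0.062, 0.074 and 0.061. Deviations of high fat and normal diet libraries with the same number correlated at -0.075, 0.075 and -0.014. Those with different numbers correlated at -0.16 to 0.15. With 3 libraries a diet these values cannot decide whether the numbers pair libraries. With the acinar covariate Gc (1.65), Irx1 (-1.01), Irx2 (-0.53) and Slc7a2 (-0.50) did not pass. Without 1 library Gc ran from 1.49 to 1.94, Irx1 from -1.13 to -0.85, Irx2 from -0.60 to -0.49, Slc7a2 from -0.53 to -0.43 and Dpp4 from 0.17 to 0.37. Fits without 1 library have fewer samples; the cause of the other changes was not tested. The ratios to Gcg kept their signs without each library, at 1.73 to 2.29 for Gc, -0.91 to -0.48 for Irx1, -0.34 to -0.13 for Irx2, -0.21 to -0.15 for Slc7a2 and 0.51 to 0.63 for Dpp4.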

Other observations

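Unnamed loci beside the Iroquois genes also differed by diet, and were picked out after their values had been seen. Within 200 kb, 1 of 2 tested loci passed by edgeR beside Irx1 and 2 of 5 beside Irx2. Of all loci tested, 10.8% passed. XLOC_009135 lies on the opposite strand to Irx2, head to head with it, and the 2 starts are 0.399 kb apart. It had 7.21, 7.25 and 8.44 CPM in high fat libraries, against 10.7, 10.9 and 11.2 CPM in normal diet libraries. It fell by 0.52 on the log2 scale (SE 0.12, edgeR adjusted p = 0.034), where Irx2 stood at -0.53, and whether the counting kept the strands apart is not stated. Another unnamed locus, XLOC_008551, lies 93.3 kb from Irx1 and went the other way. It had 1.12, 3.19 and 0.964 CPM in high fat libraries, against 0.280, 0.365 and 0.224 CPM in normal diet libraries, and rose by 2.60 on the log2 scale (SE 0.48, edgeR adjusted p = 0.024). High fat library 2 was the highest. XLOC_009630, 180 kb from Irx2, fell by 1.26 (edgeR adjusted p = 0.048) at under 1 CPM, with 200 reads over the 6 libraries. Beside Slc7a2, 0 of 6 tested loci passed by edgeR, 1 of them at an unadjusted p under 0.05. That locus, XLOC_034478, also lies head to head with its member on the opposite strand, 0.107 kb away. It stood at -0.47 (edgeR adjusted p = 0.11), where Slc7a2 stood at -0.46, so this arrangement was not particular to the Iroquois genes.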
